A study of Mus musculus with 8 samples.

Results

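*Auts2* and its paralog *Fbrsl1* were followed along their length in the mature primary motor cortex (M1) after knockdown of *Fezf2*. Every transcript of both genes in a table of raw counts per Ensembl transcript was taken, which gave 15 transcripts of *Auts2* and 2 of *Fbrsl1* among 94647 transcripts. *Auts2* was chosen by its difference between treatments, so its values describe these libraries and carry no test. *Fbrsl1* was chosen by paralogy and was tested.

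AUTS2 is a nuclear protein of neurons that joins a variant form of the Polycomb complex PRC1 with PCGF3 or PCGF5. By bringing casein kinase 2 and P300 into this complex, it is known to turn a repressive complex toward active transcription. A cytoplasmic pool acts on Rac1 and Cdc42 and on the actin cytoskeleton of neurites, and changes in the human gene cause a neurodevelopmental syndrome. The gene opens with a few exons set in very long introns and closes with a compact group of exons, which also have a start of their own for shorter transcripts.

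Male wild-type Swiss Webster mice received a lentivirus in M1 at P21 to P25, and tissue was taken at P49 to P53. Both vectors carried mCherry and a miR-30-flanked hairpin under a *Synapsin I* promoter, which is active in neurons, and differed in the hairpin, *Fezf2 shRNA* or *non-silencing shRNA* (control). Tissue was dissected by mCherry fluorescence after saline perfusion and sequenced as total RNA. It held untransduced cells beside transduced neurons, and fewer cells of a type and less RNA per cell cannot be told apart. The record gives n = 4 of each treatment, treated here as 4 animals. Summed over 1 transcript per gene, the control libraries had 58003814, 55431945, 56710016 and 54684016 counts and the *Fezf2 shRNA* libraries 56969290, 56495396, 56160031 and 55932510.

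*Fezf2*, the targeted gene (ENSMUST00000022262, chr14:12342102-12345959 in GRCm38, minus strand), encodes a zinc finger transcription factor of deep-layer projection neurons. Its normalised read counts, scaled to a common library size, were 688, 767, 735 and 702 in control replicates 1 to 4. In *Fezf2 shRNA* replicates 1 to 4 they were 621, 583, 568 and 592. Each *Fezf2 shRNA* library lay below each control, as did those of 4.41% of the 9959 genes tested. The log2 fold change was -0.29 (standard error, SE, 0.0781; edgeR adjusted p = 0.0824; n = 4 each). The two-sided exact permutation test gave p = 0.0286, the smallest that 4 libraries against 4 allow. The hairpin's sense sequence is shown with its longest match to transcripts of each member in capitals, because a long match would make the member a possible direct target.

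Longest match in *Auts2*: gggaactacaAGAATCACA
Longest match in *Fbrsl1*: gGGAACTACaagaatcaca

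Of the 19 nt of the hairpin, 9 nt in a row occurred in *Auts2* transcripts and 8 nt in *Fbrsl1* transcripts, and the antisense strand gave the same lengths. Only the length of the longest run was looked at. Whether matches this short let the hairpin act on either member was not tested.

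*Auts2* lies on the minus strand of chromosome 5. Its widest transcript, ENSMUST00000161226 (chr5:131437333-132543344 in GRCm38), spans 1106 kb with 19 exons, and exons take 0.670% of that span. Exons 1 to 5 are spread over the first 773 kb, exon 6 begins 1009 kb from the 5′ end, and exons 7 to 19 are packed from 1066 kb to the 3′ end. Reads were counted from the start to the end of each transcript on the genome, with its introns, and no use of strand is stated. A count of the widest transcript is therefore mostly a count of intronic reads, and nested transcripts share reads. The annotation lists 20 transcripts of *Auts2*. Of the 15 in the table, 13 had more than 8 CPM (counts scaled by library size) in 4 libraries or more.

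The ends of the gene can be seen in the sequence. The first 120 coding bases of exon 1 (chr5:132541704-132541823, minus strand, GRCm38) are shown with the dinucleotide CG in capitals, since this exon is the one stretch that was not higher on average after knockdown. From the compact 3′ group a repeat in exon 9 (chr5:131472310-131472387, minus strand) is shown in capitals with its flanks, as the landmark of the part where the difference was small.

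*Auts2* exon 1: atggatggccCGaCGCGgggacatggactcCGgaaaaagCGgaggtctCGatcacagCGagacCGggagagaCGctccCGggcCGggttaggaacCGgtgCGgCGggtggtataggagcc
*Auts2* exon 9: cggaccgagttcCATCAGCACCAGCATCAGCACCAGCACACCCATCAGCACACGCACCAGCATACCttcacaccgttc

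The exon 1 stretch held 14 CG. In exon 9 the repeat ran for 54 bases, or 18 codons, of which 9 were CAC or CAT, the codons for histidine.

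Over its whole interval, *Auts2* had more reads in *Fezf2 shRNA*-treated M1. The widest transcript had 12060, 12042, 14254 and 10599 normalised counts in control replicates 1 to 4. In *Fezf2 shRNA* replicates 1 to 4 it had 21102, 16701, 16487 and 16753. The treatments did not overlap, with control replicate 3 the highest control and *Fezf2 shRNA* replicate 1 well above the other 3 knockdown libraries. The mean was 12239 ± 1507 in controls and 17761 ± 2230 after knockdown (SD, n = 4 each). This is a log2 fold change of 0.54 (SE 0.105). After a trend of counts with genomic span was removed from each library (the length offset), it was 0.16 (SE 0.0756).

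The difference followed the position and length of the interval. All 8 transcripts over 300 kb hold at least 1 of the long 5′ introns, and their log2 differences in mean log2 normalised counts lay between 0.51 and 0.59, with the treatments apart in each. Of all 32204 transcripts tested, 9.64% had every knockdown library above every control. The 7 transcripts under 200 kb had log2 differences from -0.31 to 0.32, and 2 of them had the treatments apart. In all, the *Fezf2 shRNA* libraries lay above all controls in 10 of 15 transcripts, all 10 among those past the filter. As *Auts2* was chosen on this contrast and its transcripts share reads, nothing is read from that count.

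**Figure D1:**
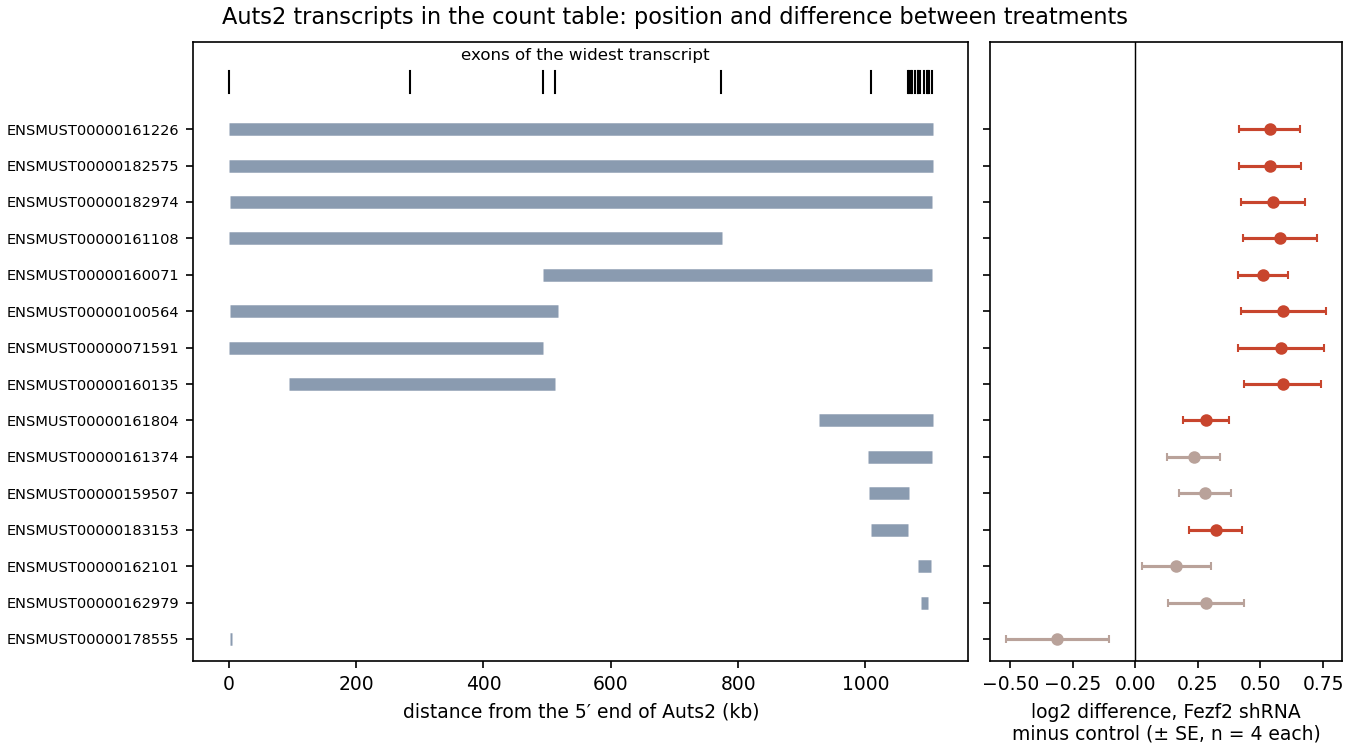
Left, the interval of each of the 15 *Auts2* transcripts as distance from the 5′ end of the gene in kb (the shortest is drawn wider than scale), with the exons of the widest transcript as black ticks. Right, the log2 difference of each, *Fezf2 shRNA* minus *non-silencing shRNA*, ± standard error (n = 4 each), in red where the treatments did not overlap: the 8 transcripts over 300 kb lie between 0.51 and 0.59 and the shorter ones between -0.31 and 0.32.

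Among the long transcripts, ENSMUST00000160135, a protein-coding transcript of 418 kb, starts inside intron 1, 94.0 kb from the 5′ end, and runs through intron 3, without the compact exons. It had 4461, 3776, 4966 and 3465 normalised counts in the controls and 7600, 5663, 6068 and 5671 after knockdown. The lowest knockdown library was thus above the highest control, and the log2 difference was 0.59 (SE 0.154). ENSMUST00000160071, which starts 493 kb into the gene and runs through introns 4 and 5 and the compact exons, differed by 0.51 (SE 0.0992).

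The 3′ transcripts gave smaller values. ENSMUST00000161804 is a protein-coding transcript of 179 kb that starts inside intron 5, 927 kb from the 5′ end. It had 2099, 2211, 1903 and 1986 normalised counts in the controls and 2847, 2610, 2269 and 2288 in the *Fezf2 shRNA* libraries. Here too the treatments were apart, by a narrow margin between control replicate 2 and *Fezf2 shRNA* replicate 3, and the log2 difference was 0.28 (SE 0.0919). The protein-coding ENSMUST00000161374 starts 1005 kb from the 5′ end and differed by 0.23 (SE 0.106). ENSMUST00000162101 covers 19.8 kb of the compact exons. Its counts were 463, 524, 369 and 486 in the controls and 592, 481, 457 and 527 after knockdown. These values overlapped, and the log2 difference of 0.16 was close to its SE of 0.137.

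Transcripts were subtracted from each other to count 9 stretches of *Auts2* apart, which were drawn after the counts had been seen. Read density per kb sets them side by side. The stretches differ much in length, and reads that reach over the edges of a short one, such as exon 1, may raise its density. From 94.0 kb into the gene to the end of intron 3 (introns 1 to 3) the density was 9.96 ± 1.61 reads per kb in controls and 14.9 ± 2.197 after knockdown (SD, n = 4 each). The start of intron 1 had 16.6 ± 3.63 and 25.9 ± 6.45, but this stretch also holds 5011 bases just past exon 4, of which 2654 are exonic in some transcript, and 209 bases of exon 1. In intron 4 the densities were 10.7 ± 1.69 and 15.7 ± 2.14. The stretches thus carried similar densities, apart from a higher one in the mixed stretch with the start of intron 1 and a lower one at the end of intron 5. Other intronic stretches also hold short pieces of exons. That last stretch, intron 5 downstream of the inner start, had 4.90 ± 0.359 and 7.04 ± 1.27 reads per kb. The part of intron 5 before the inner start had 9.78 ± 1.63 and 15.1 ± 2.51.

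Log2 differences over these intronic stretches were 0.64, 0.59, 0.55, 0.63 and 0.51 from 5′ to 3′, with SEs of 0.135 to 0.230. The treatments did not overlap in 4 of the 5, the exception being intron 4, where *Fezf2 shRNA* replicate 2 (3379 normalised counts) lay below control replicate 3 (3395). Downstream the differences were smaller. The stretch of exons 6 and 7 differed by 0.28 (SE 0.104), the compact exons by 0.20 (SE 0.119) and the terminal exons by 0.13 (SE 0.153). Only 9.33% of the bases of the stretch of exons 6 and 7 are exonic, so it is mostly intronic too. ENSMUST00000183153, which lies inside that stretch with 1.49% of its span exonic, differed by 0.32 (SE 0.106) with the treatments apart. The terminal stretch is wholly exonic, but 786 of its 2397 bases lie in exon 1 because of how the transcripts overlap. In each of these 3 stretches the treatments overlapped.

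Exon 1, counted alone as the 309 bases of ENSMUST00000178555, had 75.7, 70.2, 61.0 and 92.4 normalised counts in the controls and 77.7, 64.3, 45.8 and 55.2 after knockdown. The libraries overlapped and the log2 difference was -0.31 (SE 0.205). Its density was nevertheless among the highest of the gene, 242 ± 42.7 reads per kb in controls, next to 137 ± 21.4 in the terminal exons and 24.0 ± 2.25 in the compact stretch (SD, n = 4).

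The compact stretch also holds short introns, and 717 exonic bases at the start of ENSMUST00000161374, outside the compact group. The neighbouring stretch with exons 6 and 7 holds 5847 exonic bases of its own, so taking off its density gives only a rough count. When the density of the neighbouring stretch with exons 6 and 7 was taken off, 601, 563, 435 and 533 reads remained in the controls and 742, 544, 515 and 576 after knockdown. These overlapped, with *Fezf2 shRNA* replicate 1 again the highest, and their log2 difference was 0.15 (SE 0.154).

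**Figure D2:**
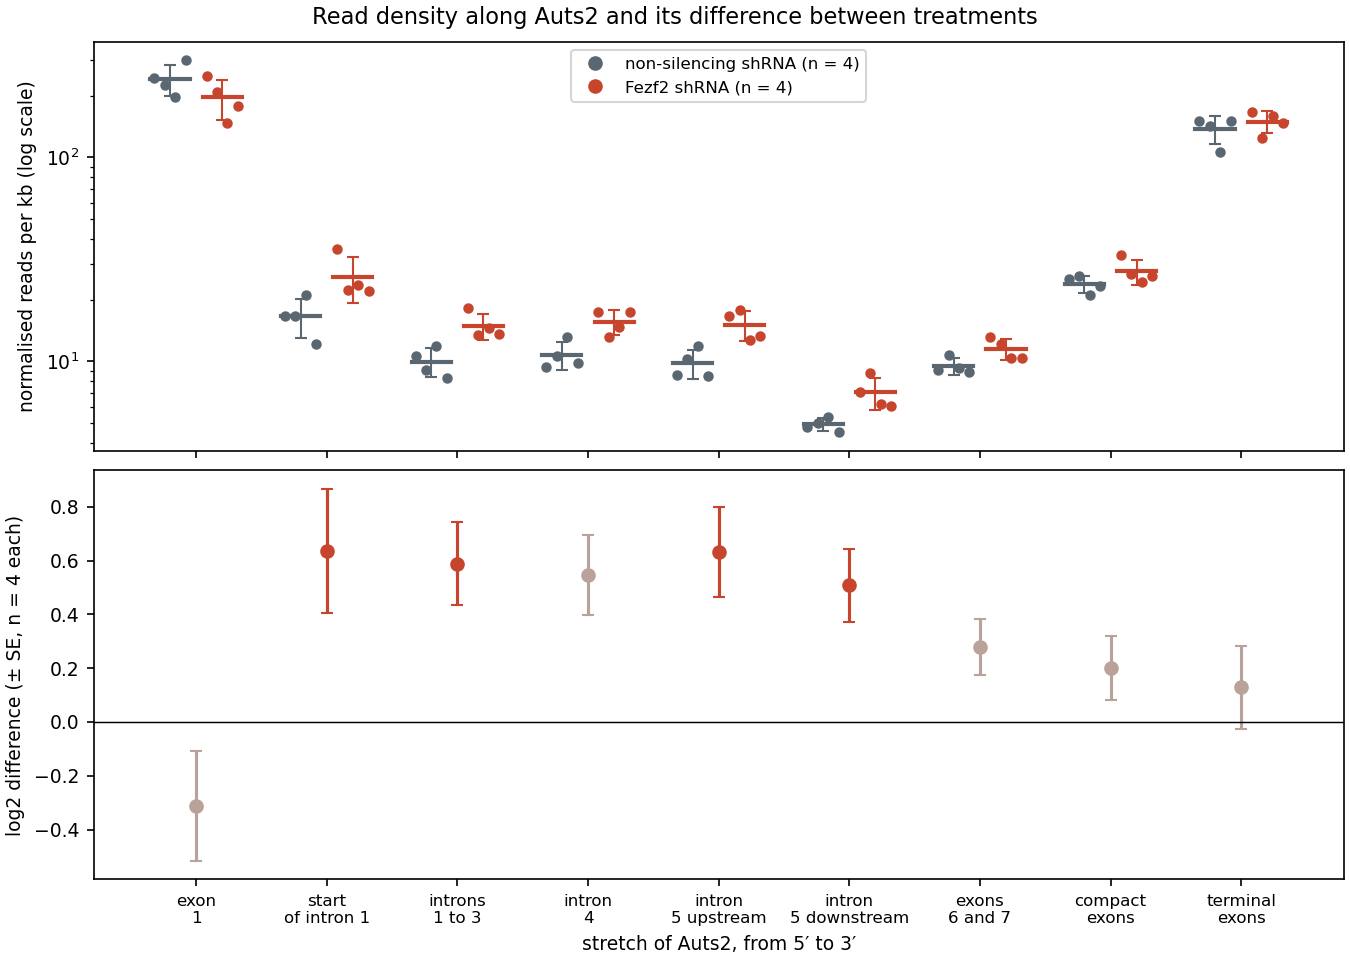
Above, normalised reads per kb (log scale) in 9 stretches of *Auts2* from 5′ to 3′, with a point per library, the mean as a line and the SD as a bar (n = 4 per treatment). Below, the log2 difference ± standard error, red where the treatments did not overlap. The 5 stretches of introns 1 to 5 lie between 0.51 and 0.64, and exon 1 at -0.31. The 3 stretches downstream lie between 0.13 and 0.28, and of these the stretch of exons 6 and 7 is also mostly intronic (9.33% exonic).

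To set the long 5′ introns against the 3′ end of the gene within each library, reads of ENSMUST00000161804 were subtracted from those of the widest transcript. The 3′ part was ENSMUST00000161804 (179 kb) and the 5′ part was the remainder (927 kb). This 3′ part is wider than the compact exons and mostly intronic: its exons take 3.02% of its span, and it includes the end of intron 5. That remainder also holds the short 3′ end of the gene past ENSMUST00000161804, from 1105.6 to 1106.0 kb. The 5′ part had 9961, 9831, 12350 and 8613 normalised counts in the controls and 18255, 14091, 14218 and 14465 after knockdown. Both parts had every knockdown library above every control, as in 1.38% of 1956 other genes with parts built in this way. Of the 9205 parts tested by edgeR, each a transcript minus the widest one nested in it, 9.38% did. *Auts2* was chosen on this contrast, so nothing is read from these shares. The log2 differences were 0.59 (SE 0.140) for the 5′ part and 0.28 (SE 0.0919) for the 3′ part. The log2 ratio of 5′ to 3′ reads was 2.25, 2.15, 2.70 and 2.12 in control replicates 1 to 4 and 2.68, 2.43, 2.65 and 2.66 in *Fezf2 shRNA* replicates 1 to 4. The ratios overlapped because control replicate 3 had the highest of all 8, while the other 3 controls lay below every knockdown library. On average the ratio was higher after knockdown by 0.30 (SE 0.146). With 1 library left out it was higher by 0.24 (without control replicate 4) to 0.43 (without control replicate 3).

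**Figure D3:**
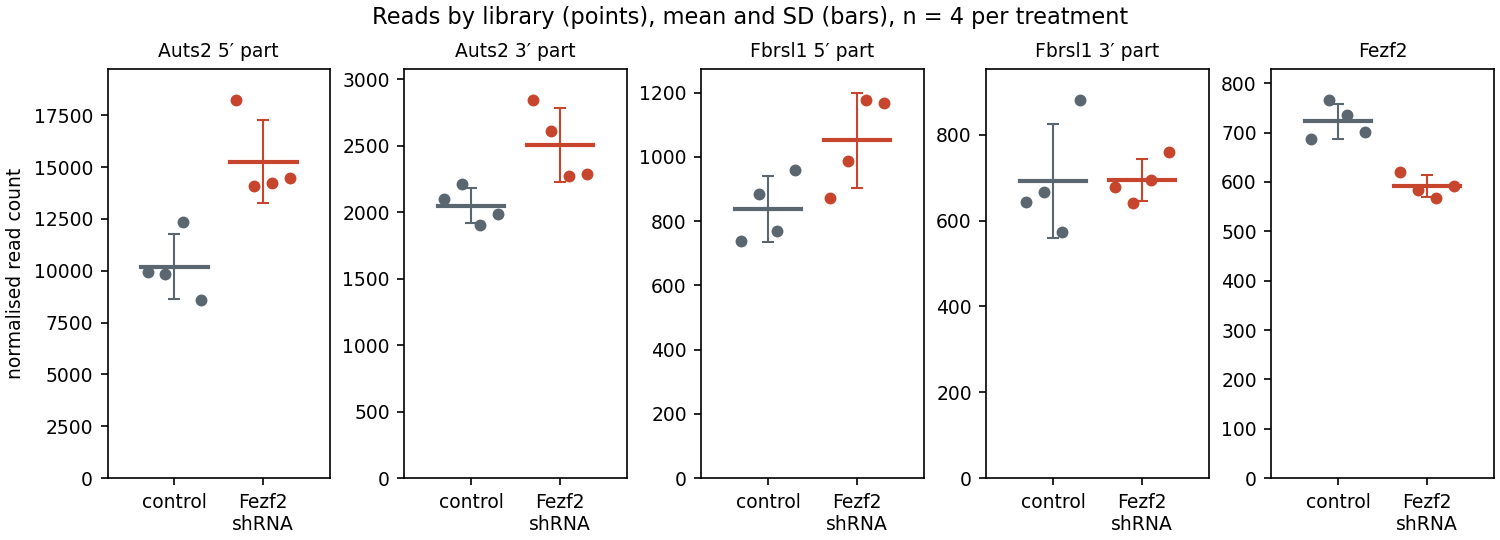
Normalised read counts of the 5′ and 3′ parts of *Auts2* and *Fbrsl1* and of *Fezf2*, with a point per library, the mean as a line and the SD as a bar (n = 4 per treatment; each axis starts at 0). Both parts of *Auts2* lie higher after knockdown, with a wider gap in the 5′ part, the *Fbrsl1* parts overlap, and *Fezf2* lies lower.

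The same ratio could be formed in 1956 other genes with at least 100 reads on average in each part. Their median difference was 0.07, and 211 had a larger one than *Auts2*. Among the 144 of these that spanned over 300 kb the median was 0.18, and 29 had a larger difference. A larger share of 5′ reads after knockdown was thus also seen in other long genes, and whether *Auts2* differed from them was not tested.

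Long genes as a class had more reads after knockdown. Of 502 other genes over 300 kb, 478 had a log2 fold change above 0, the median was 0.29, and 32 exceeded *Auts2*. Over all genes tested the median was -0.03. In control replicates 1 to 4 the median of these long genes lay -0.15, -0.06, -0.10 and -0.26 from its mean over the 8 libraries, on the log2 scale, and in the knockdown libraries 0.22, 0.05, 0.16 and 0.15. *Auts2* lay -0.28, -0.28, -0.04 and -0.47 from its own mean in the controls and 0.53, 0.19, 0.17 and 0.19 after knockdown. Both were lowest in control replicate 4 and highest in *Fezf2 shRNA* replicate 1. The part of this shift of long genes in the *Auts2* values was not tested.

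**Figure D4:**
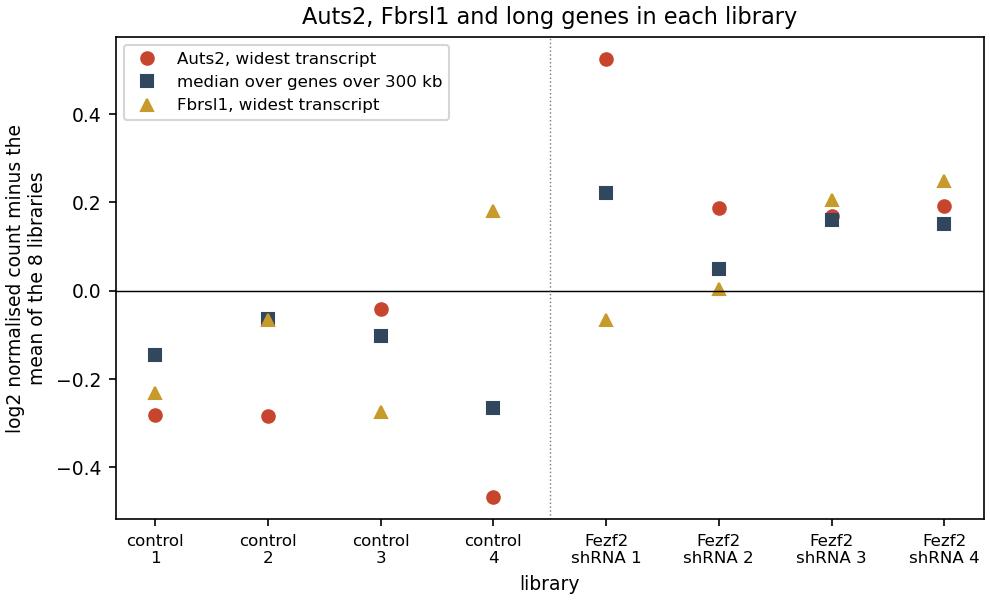
Log2 normalised count minus its mean over the 8 libraries, for *Auts2* and *Fbrsl1* (widest transcripts) and for the median of 502 other genes over 300 kb, in each library. *Auts2* and the long genes lie below 0 in the 4 controls and above 0 in the 4 *Fezf2 shRNA* libraries, with the extremes in control replicate 4 and *Fezf2 shRNA* replicate 1, while *Fbrsl1* lies on both sides of 0 in each treatment.

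In genomic span, *Auts2* ranked 33 of 10316 genes, and the 3 genes on each side are neuronal genes of similar length. The neuregulin gene *Nrg3* had a log2 fold change of 0.48 (SE 0.0838; edgeR adjusted p = 0.0161), the adhesion gene *Opcml* 0.42 (edgeR adjusted p = 0.0347) and the receptor phosphatase gene *Ptprt* 0.29 (edgeR adjusted p = 0.0455). For the potassium channel partner *Kcnip4* the value was 0.49 (edgeR adjusted p = 0.0634), for the catenin gene *Ctnna2* 0.28 (adjusted p = 0.0604) and for *Frmpd4*, a postsynaptic scaffold gene, 0.27 (adjusted p = 0.105). The first 3 were past the threshold, an edgeR adjusted p no higher than 0.05 with a log2 fold change of 0.2 or more in either direction. With the length offset none of the 6 was, and *Nrg3* stood at 0.10, *Opcml* at 0.04 and *Ptprt* at -0.10. Single libraries also mattered: the *Nrg3* call was lost without control replicate 1 (0.47, edgeR adjusted p = 0.0664). *Opcml* was not past the threshold without any 1 of control replicates 1, 3 and 4 or *Fezf2 shRNA* replicates 1, 3 and 4 (0.35 to 0.45), nor *Ptprt* without any 1 library except control replicate 2 (0.23 to 0.32) or with the replicate block (edgeR adjusted p = 0.0512). With a filter of 1 CPM neither *Opcml* (edgeR adjusted p = 0.0532) nor *Ptprt* (0.0843) passed, and with no filter *Ptprt* did not (0.0902). The other 3 were past the threshold under some alternatives. DESeq2 called *Kcnip4*, *Ctnna2* and *Frmpd4* (adjusted p of 0.00464, 0.00727 and 0.0379). By edgeR, *Kcnip4* passed with the replicate block (adjusted p = 0.0362) and without control replicate 3 (0.0319), *Ctnna2* without *Fezf2 shRNA* replicate 2 (0.0389) and *Frmpd4* without control replicate 2 (0.0305). Over all alternatives the adjusted p ranged from 0.00464 to 0.719 for *Kcnip4*, 0.00727 to 0.494 for *Ctnna2* and 0.0305 to 0.595 for *Frmpd4*.

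*Fbrsl1* (fibrosin-like 1) lies on the same chromosome and strand as *Auts2* and codes for a protein related to the C-terminal part of AUTS2. The longest run of bases that transcripts of the members share is 19 nt. The annotation lists 8 transcripts, of which 2 were in the table, and both passed the filter. ENSMUST00000069483 spans the gene (chr5:110361754-110448503, GRCm38, 86.8 kb, 19 exons). ENSMUST00000056124 starts 61.4 kb further on and holds 24.3 kb with 12 exons, ending at 85.7 kb, short of the 3′ end of the gene. RefSeq (GRCm38.p6) gives 2 promoters, each 250 bases before to 50 after a RefSeq start. The outer one fits the start of ENSMUST00000069483, and the inner one is placed on a start slightly upstream of ENSMUST00000056124. Both are shown with CG in capitals, as they lie where the 5′ and the 3′ part begin.

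*Fbrsl1* outer promoter, chr5:110448454-110448753, minus strand: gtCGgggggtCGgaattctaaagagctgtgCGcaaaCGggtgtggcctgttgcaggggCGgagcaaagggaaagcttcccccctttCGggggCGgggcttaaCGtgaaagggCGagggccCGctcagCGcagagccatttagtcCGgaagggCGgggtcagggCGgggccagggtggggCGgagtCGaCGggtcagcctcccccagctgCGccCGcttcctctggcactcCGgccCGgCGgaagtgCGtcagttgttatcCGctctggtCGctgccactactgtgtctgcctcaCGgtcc
*Fbrsl1* inner promoter, chr5:110387078-110387377, minus strand: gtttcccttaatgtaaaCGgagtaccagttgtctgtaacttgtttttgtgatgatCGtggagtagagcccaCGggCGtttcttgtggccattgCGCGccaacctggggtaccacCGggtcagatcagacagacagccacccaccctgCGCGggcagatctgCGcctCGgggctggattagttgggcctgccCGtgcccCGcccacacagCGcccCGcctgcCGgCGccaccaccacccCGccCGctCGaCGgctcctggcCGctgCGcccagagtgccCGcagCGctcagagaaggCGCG

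The outer promoter held 26 CG and the inner one 27. As many or more were found in 16.9% and 15.5% of the 32851 promoters of the same length in that table.

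No transcript of *Fbrsl1* was past the threshold. ENSMUST00000069483 had 1383, 1553, 1344 and 1841 normalised counts in control replicates 1 to 4. In *Fezf2 shRNA* replicates 1 to 4 it had 1552, 1630, 1873 and 1929. The treatments overlapped: control replicate 4 lay above *Fezf2 shRNA* replicates 1 and 2, and control replicate 2 just above replicate 1. The log2 fold change was 0.19 (SE 0.109; edgeR adjusted p = 0.331; two-sided exact permutation test, p = 0.2). ENSMUST00000056124 had 644, 668, 573 and 882 counts in the controls and 679, 642, 695 and 761 after knockdown. These values also overlapped, and the log2 fold change of 0.00 (SE 0.127; edgeR adjusted p = 0.987) was far within the spread of the replicates. By edgeR 0 of 2 transcripts were past the threshold, against 5.22% of all transcripts tested, 0 had an unadjusted p under 0.05, and DESeq2 called 0. Among 1595 other genes of 60 to 120 kb the median log2 fold change was 0.06, and 263 exceeded *Fbrsl1*.

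The rule for a 3′ part, less than 25% of the span, found no transcript of *Fbrsl1*, and ENSMUST00000056124, with 28.0% of the span, was taken after the values had been seen. The 5′ part was then the widest transcript minus ENSMUST00000056124 (62.4 kb). It therefore also holds the 3′ end of the gene past ENSMUST00000056124, from 85.7 to 86.8 kb, whose reads were not counted apart. This 5′ part had 739, 885, 770 and 959 normalised counts in the controls and 873, 988, 1178 and 1168 after knockdown. Control replicates 2 and 4 lay above the lowest knockdown library, replicate 1, so the treatments overlapped. The log2 fold change was 0.33 (SE 0.116; edgeR adjusted p = 0.128; two-sided exact permutation test, p = 0.0857), not past the threshold, which 5.70% of parts of genes passed. The log2 ratio of 5′ to 3′ reads was 0.20, 0.41, 0.43 and 0.12 in the controls and 0.36, 0.62, 0.76 and 0.62 after knockdown. *Fezf2 shRNA* replicate 1 lay among the controls and the other 3 above them. The mean ratio was higher by 0.30 (SE 0.113), which the two-sided exact permutation test did not tell from the spread of the replicates (p = 0.0857). Without *Fezf2 shRNA* replicate 1 the difference was 0.38 (exact permutation test, p = 0.0286, the smallest that 7 libraries allow, within a range of 0.0286 to 0.171 over the alternatives). Whether the ratio changed more in *Auts2* than in *Fbrsl1* was not tested.

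**Figure D5:**
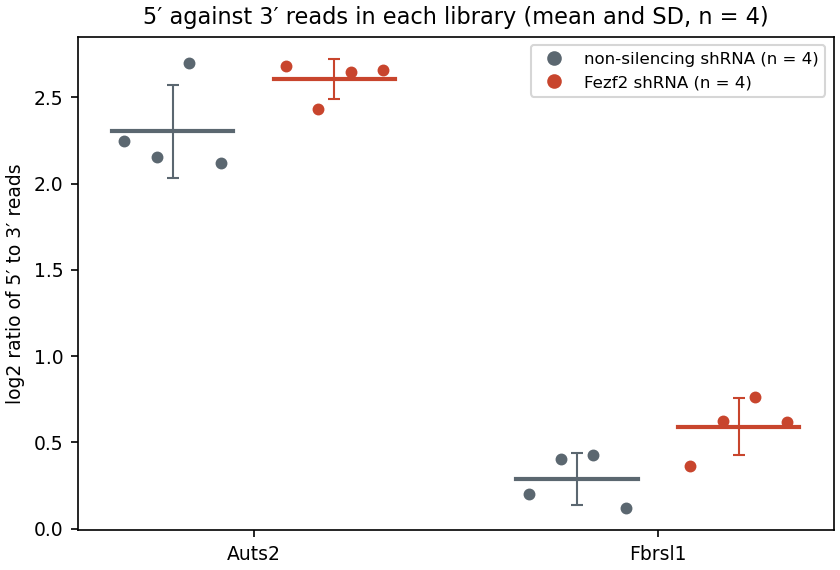
Log2 ratio of 5′ to 3′ reads of *Auts2* and *Fbrsl1*, with a point per library, the mean as a line and the SD as a bar (n = 4 per treatment). The *Auts2* ratios overlap through control replicate 3 at 2.70, and the *Fbrsl1* ratios through *Fezf2 shRNA* replicate 1 at 0.36.

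Genes that lie in or next to the members could add reads to them. *Gm27266*, annotated as a ribosomal RNA of 123 bp inside intron 5 of *Auts2*, had 2, 8, 0 and 2 raw counts in the controls and 0, 4, 0 and 0 after knockdown. *Gm26711*, a long noncoding RNA on the opposite strand, overlaps the inner start of *Fbrsl1* and had 46, 40, 41 and 50 raw counts in the controls and 46, 73, 80 and 61 after knockdown. If strand was not used in counting, its reads cannot be told apart from those of *Fbrsl1*. With all of them taken from the 3′ or from the 5′ part, the ratio difference of *Fbrsl1* was 0.35 or 0.29 (two-sided exact permutation test, p = 0.0857 for each). The nearest tested neighbour of *Auts2*, 129 kb beyond its 3′ end, was *Galnt17*, a glycosyltransferase gene of 436 kb. It had 2508, 3261, 2992 and 2242 normalised counts in the controls and 3577, 3831, 3639 and 3566 after knockdown. Every knockdown library was above the controls, as for 7.41% of the genes tested, and the log2 fold change of 0.41 (SE 0.105; edgeR adjusted p = 0.0722) did not pass the threshold. It passed with DESeq2 (adjusted p = 0.00614) and without control replicate 2 (0.50, edgeR adjusted p = 0.0242), and was 0.14 with the length offset (edgeR adjusted p = 0.648, the highest of the alternatives). *Castor2*, 1556 kb beyond the 5′ end, stood at 0.03 (edgeR adjusted p = 0.896). Beside *Fbrsl1*, *Galnt9*, another glycosyltransferase gene, stood at 0.03 (edgeR adjusted p = 0.945) and the antisense gene *Gm15788* at -0.03 (edgeR adjusted p = 0.917).

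The proteins that AUTS2 works with were followed through lists of genes, at the level of 1 transcript per gene. Of all 9959 genes tested, 2.09% were past the threshold, 1.96% higher and 0.131% lower, and 19.6% had an unadjusted p under 0.05. DESeq2 called 7.22% of them. Beside *Auts2* and *Fbrsl1*, the AUTS2 family holds *Fbrs* (fibrosin), with 506, 530, 481 and 633 normalised counts in the controls and 605.5, 551, 506 and 564 after knockdown. The treatments overlapped, and its log2 fold change was 0.05 (SE 0.106; edgeR adjusted p = 0.814). With the short *Fbrsl1* transcript that stood for its gene here, 0 of 2 family members were past the threshold by edgeR or DESeq2 and 0 had an unadjusted p under 0.05.

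Of the 11 variant PRC1 partners, 10 were tested and 0 were past the threshold by edgeR or DESeq2, with 1 at an unadjusted p under 0.05 and a median log2 fold change of 0.03. That gene was *Csnk2a2*, a catalytic subunit of casein kinase 2. It had 1875, 1995, 1960 and 1838 normalised counts in the controls and 2098, 2121, 2084 and 2240 after knockdown. All 4 knockdown libraries were above the controls, by a log2 fold change of 0.16 (SE 0.0590; edgeR adjusted p = 0.189). The partners with the most reads were *Csnk2a1*, the other catalytic subunit, at -0.02, the acetyltransferase gene *Ep300* at 0.08 and *Pcgf3*, the scaffold that AUTS2 binds, at 0.00, with adjusted p of 0.831, 0.505 and 0.991 from edgeR.

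Of 19 other Polycomb genes, 15 were tested. *Phc3*, a polyhomeotic gene, had a log2 fold change of 0.18 at an unadjusted p under 0.05 (edgeR adjusted p = 0.219). *Cbx6* at -0.03, *Phc2* at 0.04 and *Bcor* at 0.02 had the most reads, with adjusted p from 0.776 to 0.871 from edgeR, and the median of the list was -0.03.

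All 8 genes of Rac and Cdc42 signalling were tested. By edgeR 0 were past the threshold, 1 had an unadjusted p under 0.05, and DESeq2 called 1, in both cases *Wasf1*, which encodes the WAVE protein that drives actin branching downstream of Rac. *Wasf1* had 3669, 4181, 3703 and 3206 normalised counts in the controls and 4935, 4425, 4529 and 4647 after knockdown. The treatments were apart, with a log2 fold change of 0.33 (SE 0.0787; edgeR adjusted p = 0.0592 and 0.00528 from DESeq2). Over the alternatives the adjusted p ranged from 0.00528 to 0.245, and without control replicate 2 the gene was past the threshold (0.39, edgeR adjusted p = 0.0225). The kinase gene *Pak1* at -0.11, the exchange factor gene *Prex1* at 0.14 and the GTPase gene *Rac1* at -0.02 had the most reads and adjusted p from 0.276 to 0.839 (edgeR). The median of the list was -0.00.

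Once each treatment's mean was removed, the genes whose log2 counts most resembled *Auts2* over the 8 libraries were *Rhbdl3*, *Srp9*, *Snx7*, *Msantd4* and *Tmem108*, with Pearson's r of 0.986, 0.983, 0.971, 0.967 and 0.955. They were picked as the highest of all genes tested, and the libraries share depth and composition, so r is a description. *Rhbdl3* (a rhomboid protease gene), *Srp9* (a subunit of the signal recognition particle) and *Tmem108* had *Fezf2 shRNA* replicate 1 apart from the other knockdown libraries, as *Auts2* did. Only *Tmem108*, a transmembrane gene of 210 kb, was also higher in all 4 knockdown libraries, at 0.40 (SE 0.102; edgeR adjusted p = 0.0722). DESeq2 called it (adjusted p = 0.00651), and with the length offset it stood at 0.21 (edgeR adjusted p = 0.423, the highest of the alternatives). *Srp9* at -0.53 and *Msantd4* at -0.21 had negative values, with adjusted p of 0.166 and 0.167, and *Rhbdl3* at -0.09 and the sorting nexin gene *Snx7* at 0.09 lay near 0, with adjusted p of 0.727 and 0.762 (edgeR).

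Markers of cortical excitatory neurons were present in every library, as the label of M1 asks. Their 7 genes summed to 50257, 54301, 44196 and 47401 normalised counts in the controls and 51343, 49261, 47492 and 46893 after knockdown, and *Slc17a7*, the vesicular glutamate transporter gene, was the most abundant. The sums overlapped and had a log2 difference of -0.01 (SE 0.0696). By edgeR 0 of 7 were past the threshold, 3 had an unadjusted p under 0.05, and DESeq2 called 2. Oligodendrocyte markers varied more between libraries. Their 5 genes, led by the myelin basic protein gene *Mbp*, summed to 59724, 82004, 71312 and 108390 in the controls and 47409, 44718, 72971 and 73225 after knockdown. Control replicate 4, where *Auts2* was lowest, had the highest sum, while the lowest sums were in *Fezf2 shRNA* replicates 1 and 2. The sums overlapped, with a log2 difference of -0.44 (SE 0.265). By edgeR 0 of 5 were past the threshold, 4 were lower at an unadjusted p under 0.05, and DESeq2 called 2 as lower, while 0 were at 0 in any library. Over all genes tested, 7.73% were lower at that unadjusted p, and DESeq2 called 0.994% as lower. Their part in the *Auts2* values was not tested.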

How the data were processed

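The deposited counts are raw counts per Ensembl transcript. The authors trimmed adapters, aligned paired-end reads to mm10 (GRCm38) with TopHat2 2.1.1 and counted alignments over transcript intervals with multiCov of bedtools 2.26.0, with no use of strand that is stated. The authors' own table of comparisons holds fold changes and p-values and was not used. Transcripts were placed with GENCODE M21 (GRCm38), where 91320 of 94647 were found. The other 3327 held 1.82% of counts. Members and lists were chosen with earlier results of these data known.

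For normalised counts, each library was scaled to the mean effective size (TMM, from 1 transcript per gene, the lowest Ensembl number). Features over 8 CPM in 4 or more libraries were tested with edgeR 4.0.16 (quasi-likelihood, Benjamini-Hochberg adjustment, no covariate) in R 4.3.3, at the level of 9959 genes, 32204 transcripts or 9205 parts (a transcript minus the widest transcript of its gene nested in it). Standard errors are those of the fit for log2 fold changes and come from the spread of 4 libraries per treatment for log2 differences and ratios. The 3′ part was the widest transcript under 25% of the span that ends within the last 10% of the gene (under 30% for *Fbrsl1*). No 2 libraries were identical. Steps were tested on simulated data. Python 3.11.15 drew the figures.

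Genes are named by rule: *Fezf2*, both members, genes of the 4 lists past the threshold or at an unadjusted p under 0.05 and the 3 with the most reads in each, the 5 most like *Auts2*, overlapping and nearest genes, the 3 next in span on each side, and 8 lists of cell type markers. Some results under this rule are not reported here. Alternatives were normalization by DESeq2's median of ratios or library totals, a filter of 1 CPM or none, DESeq2 1.42.0, the replicate block, the length offset (for each library, a loess fit with span 0.3 of log ratios against log genomic span), both, each library left out, the widest transcript per gene, other 3′ parts, the reads of *Gm26711* taken from either *Fbrsl1* part, and a pseudocount of 1 read.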

Additional observations from a re-analysis of the deposited data

Results flagged for a closer look

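In 14 of 126 groups of 4 libraries examined, 1 library lay far from the other 3, where chance gives about 1 in 20 groups. Many of these groups share reads. *Fezf2 shRNA* replicate 1 was the high library for *Auts2* ENSMUST00000161226 (21102 normalised counts, the others 16487 to 16753), ENSMUST00000182575 (21012), ENSMUST00000182974 (20610), ENSMUST00000100564 (11133) and ENSMUST00000071591 (10983). The same library was high in the start of intron 1 (3455 against 2150 to 2297). It was also high for *Rhbdl3* (615 against 477 to 484), *Srp9* (910 against 606 to 616) and *Tmem108* (5248 against 4155 to 4275), which were named because they varied with *Auts2*. Without this library the log2 fold change of *Auts2* was 0.44.

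*Fezf2 shRNA* replicate 2 had the lowest log2 ratio of 5′ to 3′ *Auts2* reads after knockdown (2.43, the others 2.65 to 2.68). It was high for *Gm15788* (1025 against 701 to 751), and it was the 1 knockdown library with reads on *Gm27266* (4.02 normalised counts). Control replicate 4 was high for *Phc2* (2494 against 2240 to 2270) and low for *Ctnna2* (24387 against 28418 to 29228).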

How the results depend on the processing

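The 208 genes, 1680 transcripts and 525 parts past the threshold depended on the settings, which bears on the shares set beside the members. Genes numbered 719 with DESeq2, 84 with more than 1 CPM, 103 with no filter and 2 with the length offset. Transcripts numbered 3316, 1014, 1072 and 38 under the same settings. With each library left out, genes ranged from 0 to 368, transcripts from 78 to 2474 and parts from 87 to 717. Genes numbered 0, 368, 130 and 4 without control replicates 1 to 4, and 13, 9 and 17 without *Fezf2 shRNA* replicates 1, 3 and 4. Without control replicates 1 and 4 and *Fezf2 shRNA* replicates 1, 3 and 4 there were 78, 370, 701, 382 and 819 transcripts and 87, 240, 249, 247 and 258 parts. Replicate numbers did not pair the samples: correlations of same-numbered libraries were 0.30, 0.09, -0.13 and 0.17, and 2 of 4 correlated best with their own number. As a replicate block they gave 90 genes, and with the length offset 2 genes, 42 transcripts and an *Auts2* log2 fold change of 0.15.

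The *Auts2* log2 fold change was 0.16 with the length offset and 0.44 to 0.63 with a library left out, and its 5′ minus 3′ difference 0.24 to 0.43. That difference was 0.39 and 0.46 with introns 1 to 3 set against the compact and the terminal exons. *Fbrsl1* stayed below the threshold under all 17 alternatives (adjusted p from 0.140 to 0.987; 0.14 to 0.29 with a library left out). Its ratio difference was 0.25 to 0.38 with a library left out and passed 0.05 without *Fezf2 shRNA* replicate 1 (0.38); a narrower 3′ transcript gave no other value. *Fezf2* passed the threshold with DESeq2 (-0.29, adjusted p = 0.0205, over alternatives 0.0205 to 0.447) and was -0.31 to -0.26 with a library left out and -0.18 with the length offset, with or without the block. The alternatives for parts and named genes, and the 3′ parts from stretches, were chosen after seeing the data.

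Values of genes that had not passed the threshold, and of *Ptprt*, changed sign as follows. With the length offset, alone and with the block, *Ptprt* stood at -0.10 and -0.10, *Ctnna2* at -0.10 and -0.10, *Frmpd4* at -0.11 and -0.11, *Bcor* at -0.10 and -0.10, *Phc2* at -0.0552 and -0.0553, *Cbx6* at 0.0786 and 0.0740, *Pcgf3* at -0.0148 and -0.0154, *Rac1* at 0.0213 and 0.0221, *Prex1* at -0.00675 and -0.00481, *Galnt9* at -0.0362 and -0.0170, and *Gm15788* at 0.0482 and 0.0363. With library totals *Pcgf3* stood at -0.0261, *Bcor* at -0.00352 and *Castor2* at -4.09e-05. With a library left out the ranges were -0.00992 to 0.0496 for *Bcor*, -0.0425 to 0.0835 for *Castor2*, -0.0916 to 0.0369 for *Cbx6*, -0.0670 to 0.24 for *Galnt9*, -0.17 to 0.0412 for *Gm15788*, -0.0192 to 0.0153 for *Pcgf3*, -0.0493 to 0.00646 for *Rac1*, -0.19 to 0.0150 for *Rhbdl3* and -0.0437 to 0.23 for *Snx7*. The causes were not tested.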

Other observations

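The markers of the other cell types in the tissue are given as sums over each list of genes, in normalised counts (mean ± SD, n = 4 each). GABAergic interneuron markers summed to 17218 ± 1216 in controls and 16167 ± 735 after knockdown, led by *Gad1*, and astrocyte markers, led by *Slc1a3*, to 29380.1 ± 2443 and 27202 ± 2827. Microglial markers, led by *Csf1r*, summed to 7560.3 ± 839 and 7937 ± 1064, and those of oligodendrocyte precursors, led by *Pdgfra*, to 2228 ± 141 and 2134 ± 94.6. Endothelial markers, none past the filter and led by *Flt1*, summed to 1100.3 ± 189 and 924 ± 39.5. Markers of striatal projection neurons, led by *Ppp1r1b*, summed to 3275 ± 193 and 3038 ± 475. In each of these 6 lists the treatments overlapped. Neither edgeR nor DESeq2 called a gene of these lists (0 each). The interneuron markers *Pvalb* and *Vip*, 2 genes, were lower at an unadjusted edgeR p below 0.05.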
